A study of Mus musculus with 8 samples.

Results

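The genes described here are 10 early response genes of the Nr4a, Klf and Ier families together with Zfp36, picked by gene symbol, with no threshold on a measured value. All 10 were found among the 16974 genes of the expression table, which writes their symbols in capitals as NR4A1, NR4A2, NR4A3, KLF4, KLF6, KLF10, IER2, IER3, IER5 and ZFP36. The measurements are mRNA sequencing of Neuro2A (N2A) cells, a mouse neuroblastoma line. Every culture was first kept for 16 h in serum-free medium with albumin and then received either 2 µM HU210, an agonist of the cannabinoid 1 receptor, dissolved in DMSO, or DMSO without drug, for 2, 4, 6 or 8 h. Each of these 8 conditions is 1 library, made from RNA that was pooled from 2 to 3 experiments. No hour thus has a replicate, and values for a single hour carry no p-value. In such bulk RNA, fewer cells that express a gene and less RNA per cell cannot be told apart.

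Early response genes are transcribed within minutes of a stimulus from factors that are already present in the cell, such as CREB, which binds the cyclic AMP response element (CRE), and SRF with its Elk partners, which binds the CArG box. Their mRNAs are short-lived as a rule, in part through AU-rich elements in the 3′ UTR, so that a pulse of transcription after serum or a growth factor has largely faded within a few hours. The Nr4a genes encode orphan nuclear receptors and the Klf genes zinc finger factors of GC-rich promoters. The Ier genes were named as immediate early response genes, and Zfp36 encodes tristetraprolin, a protein that binds AU-rich elements and recruits the CCR4-NOT deadenylase.

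Levels are given as FPKM, fragments scaled by transcript length and, per the authors' upper-quartile setting, by the upper quartile of the library, which can be compared between genes of different length. These values do not carry the number of reads behind each gene, and no counting error is given. The libraries listed between 16372 and 16557 genes, of which 11328 to 11444 had an FPKM of at least 1. Of 12 markers of sympathetic neuroblastoma and neurons that were analysed, 10 had a mean FPKM of at least 1, while Nefl and Nefm lay near 0. The summed FPKM of these markers was 795 to 892 with DMSO and 816 to 906 with HU210. Markers of other cell types summed to at most 2.45 for fibroblasts, 0.614 for macrophages, 5.26 for glia and 1.38 for endothelium in any library.

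In the DMSO libraries, the level of the 10 genes ran from about 28 FPKM to about 1 FPKM. Ier2 was the most abundant, with a mean of 28.0 ± 2.92 FPKM (SD over the 4 DMSO libraries, which differ in hour). Klf6 followed with 23.5 ± 1.25 FPKM, Ier3 with 14.5 ± 2.40 and Klf10 with 13.1 ± 1.23. A group of 4 genes lay close together, Zfp36 at 4.86 ± 0.389 FPKM, Nr4a1 at 4.72 ± 0.293, Klf4 at 4.44 ± 0.733 and Ier5 at 4.41 ± 0.638. Nr4a3 at 1.77 ± 0.322 and Nr4a2 at 1.28 ± 0.361 FPKM were the lowest. Ranges of the 4 DMSO libraries did not overlap between Ier2 and Klf6, Klf6 and Ier3, Klf10 and Zfp36, or Ier5 and Nr4a3, and all other neighbours in this order overlapped. By the mean over the 8 libraries, Ier2 was higher than 75.4% of the 11311 genes with a mean FPKM of at least 1, and Nr4a2 higher than 3.08% of them.

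**Figure D1:**
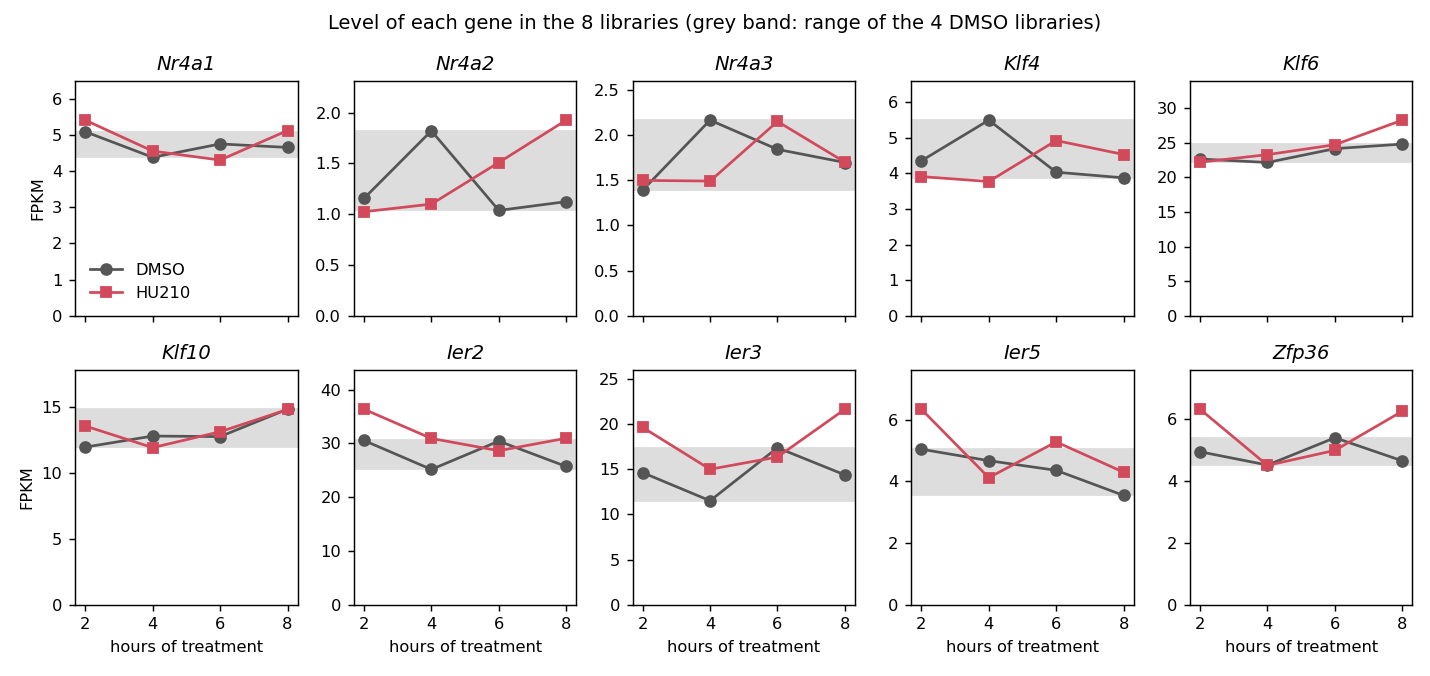
FPKM of each of the 10 genes (vertical axis, starting at 0 and scaled to each gene) against the hours of treatment, with DMSO libraries as grey circles and HU210 libraries as red squares, 1 library per point and no error bars. The grey band is the range of the 4 DMSO libraries, above which Ier3 and Zfp36 lie with HU210 at 2 h and 8 h but not at 4 h or 6 h.

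The change with HU210 is given as log2[(FPKM with HU210 + 1)/(FPKM with DMSO + 1)] at the same hour, in which the added 1 pulls weakly expressed genes towards 0. With this measure none of the 10 genes passed a change of 1.5-fold at any hour, in either direction. Among all genes with a mean FPKM of at least 1 at the hour, the share higher with HU210 by 1.5-fold was 0.604%, 2.81%, 1.89% and 1.3% in the order of the hours, and the share lower was 1.52%, 8.80%, 0.708% and 0.588%. With a pseudocount of 0.1 in place of 1, which brings the measure closer to the plain ratio of the FPKM, the lower level of Nr4a2 at 4 h and the higher levels of Nr4a2 and Ier3 at 8 h passed 1.5-fold. The share of all genes past it was then 1.01%, 3.94%, 2.83% and 2.24% higher and 2.27%, 11.5%, 1.22% and 0.939% lower.

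Nr4a1 (Nur77; ENSMUSG00000023034, chr15:101097277-101105223 in mm9, plus strand) had 5.09, 4.38, 4.75 and 4.66 FPKM with DMSO at 2, 4, 6 and 8 h. With HU210 it had 5.41, 4.56, 4.31 and 5.12 FPKM. The HU210 levels at 2 h and 8 h lay just above all DMSO libraries and the level at 6 h just below them. The log2 changes were 0.074, 0.046, -0.12 and 0.11, in the order of the hours here and for the genes that follow.

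Nr4a2 (Nurr1; ENSMUSG00000026826, chr2:56959241-56976414 in mm9, minus strand), a receptor known for its role in dopaminergic neurons, had 1.15, 1.82, 1.04 and 1.12 FPKM with DMSO at 2, 4, 6 and 8 h. With HU210 the levels were 1.02, 1.10, 1.51 and 1.92 FPKM. DMSO was therefore the higher library at 2 h and 4 h, and HU210 the higher at 6 h and 8 h. The log2 changes were -0.090, -0.43, 0.30 and 0.46. The value at 4 h rests on the DMSO library of that hour, which was the highest of the 4. Taken against their mean instead, it was -0.11.

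Nr4a3 (Nor1; ENSMUSG00000028341, chr4:48058025-48099319 in mm9, plus strand) had 1.39, 2.17, 1.84 and 1.70 FPKM with DMSO and 1.5, 1.49, 2.15 and 1.70 with HU210. All 4 HU210 levels lay within the range of the DMSO libraries. Its largest log2 change was -0.35 at 4 h, again beside a DMSO library that was the highest of the 4. The other changes were 0.064, 0.15 and 0.0020.

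All 3 Nr4a promoters hold the core of the CRE, a site known from early response genes, and its matches are shown for this reason. Promoters were read from RefSeq on GRCm38.p6, from 250 bases before to 50 bases after the gene's start, for the 8 genes with an entry. Klf10 and Ier2 had none. The full CRE, TGACGTCA, was found in 0 of these 8 promoters and in 1.79% of 32851 promoters of the same length. The 5-base core CGTCA, searched on both strands and also part of the full CRE, was found in 4 of 8, namely Nr4a1, Nr4a2, Nr4a3 and Klf4, against 20.8% of all promoters. Each Nr4a promoter held 4 matches and that of Klf4 held 1. The match nearest to the start of each Nr4a gene and the match of Klf4 are printed on the strand of the gene, with the core or its reverse complement in capitals. Counted from the start of the gene they lie at -40 in Nr4a1 (chr15:101266796-101266820, plus strand), -111 in Nr4a2 (chr2:57124100-57124124, minus strand), -147 in Nr4a3 (chr4:48045148-48045172, plus strand) and -232 in Klf4 (chr4:55532693-55532717, minus strand), all in GRCm38.p6.
Nr4a1: cctctccatgCGTCAcggagcgctt
Nr4a2: acggggccgcTGACGcgcttggccg
Nr4a3: gtggcataaaTGACGtgccgagaga
Klf4: gcctggctggCGTCAcggcctggcc

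Of the other motifs, the GC box GGGCGG was found in all 8, against 35.7% of all promoters. The NBRE, AAAGGTCA, to which Nr4a receptors themselves bind, was found in 0 of 8 and in 1.51% of all promoters, and the EGR site GCGTGGGCG in 0 of 8 and 0.612%. The TATA box letters TATAAA, searched on both strands, were found in 1 promoter, that of Nr4a2, against 13.6% of all. In Nr4a2 they stand on the strand opposite to the gene, which itself reads TTTATA at -164. These are matches of letters in a short window and do not show binding. The shares of all promoters are not limited to genes expressed in these cells or to promoters of like GC content.

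Klf4 (ENSMUSG00000003032, chr4:55540013-55545347 in mm9, minus strand), known as a factor of pluripotency and of growth arrest, had 4.36, 5.50, 4.04 and 3.88 FPKM with DMSO at 2, 4, 6 and 8 h. With HU210 it had 3.91, 3.77, 4.93 and 4.53 FPKM. As for Nr4a2, DMSO was the higher library at 2 h and 4 h and HU210 at 6 h and 8 h. The log2 changes were -0.12, -0.45, 0.23 and 0.18. With the DMSO mean as reference that at 4 h became -0.18.

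Klf6 (ENSMUSG00000000078, chr13:5860735-5869639 in mm9, plus strand), which is linked to axon growth in the nervous system, had 22.7, 22.2, 24.2 and 24.8 FPKM with DMSO. With HU210 the levels were 22.2, 23.3, 24.7 and 28.3 FPKM. The library of HU210 at 8 h was the highest of all 8 and the only HU210 library above the DMSO range. The log2 changes were -0.028, 0.069, 0.032 and 0.18.

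Klf10 (ENSMUSG00000037465, chr15:38221219-38230464 in mm9, minus strand), also called TIEG1 for its early induction by TGF-beta, had 12.0, 12.8, 12.8 and 14.8 FPKM with DMSO. The HU210 libraries had 13.6, 11.9, 13.1 and 14.8 FPKM. It had the smallest span of the 10 genes, the highest library being 1.24 times the lowest. Over all genes tested the median of this ratio was 1.40, and over the 10 genes it was 1.45. The log2 changes of Klf10 were 0.17, -0.095, 0.038 and -0.0018.

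Ier2 (ENSMUSG00000053560, chr8:87185230-87186751 in mm9, minus strand) had 30.5, 25.2, 30.4 and 25.7 FPKM with DMSO at 2, 4, 6 and 8 h. With HU210 it had 36.4, 30.9, 28.6 and 31.0 FPKM. The HU210 libraries of 2 h, 4 h and 8 h were above all 4 DMSO libraries, those of 4 h and 8 h by a small margin. Its log2 changes were 0.24, 0.29, -0.084 and 0.26.

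Ier3 (IEX-1; ENSMUSG00000003541, chr17:35958629-35959868 in mm9, plus strand), a regulator of cell survival and of ERK signalling, had 14.6, 11.5, 17.4 and 14.4 FPKM with DMSO. With HU210 the levels were 19.6, 15.01, 16.4 and 21.7 FPKM. Ier3 thus was higher with HU210 at 2 h, 4 h and 8 h and slightly lower at 6 h, where the DMSO library was the highest of the 4. Its log2 changes of 0.40 at 2 h and 0.56 at 8 h were the largest of the 10 genes at those hours, followed by 0.35 at 4 h and -0.083 at 6 h. At 4 h the DMSO library was the lowest of the 4, and against their mean the change was 0.061. The change at 8 h stayed at 0.56 against that mean.

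Ier5 (ENSMUSG00000056708, chr1:156943497-156946766 in mm9, minus strand), which promotes the activity of heat shock factor 1, had 5.05, 4.67, 4.36 and 3.55 FPKM with DMSO, a lower level at each later hour. With HU210 it had 6.34, 4.12, 5.28 and 4.30 FPKM. The HU210 libraries of 2 h and 6 h were above the DMSO range. For Ier5 the log2 changes were 0.28, -0.15, 0.23 and 0.22.

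Zfp36 (ENSMUSG00000044786, chr7:29161803-29164274 in mm9, minus strand) had 4.93, 4.50, 5.38 and 4.64 FPKM with DMSO at 2, 4, 6 and 8 h, and 6.30, 4.49, 4.98 and 6.24 with HU210. It was above the DMSO range at 2 h and 8 h. At 4 h it was only just below the lowest DMSO library, and at 6 h the DMSO library was the highest of the 4, as for Ier3. The log2 changes were 0.30, -0.0025, -0.095 and 0.36. Zfp36 was the only 1 of the 8 promoters with a CArG box, which 1.63% of all promoters hold. It lies at -58 from the start (chr7:28379267-28379296 in GRCm38.p6, minus strand), printed on the strand of the gene with the box in capitals.
Zfp36: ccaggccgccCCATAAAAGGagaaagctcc

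The AU-rich heptamer TATTTAT, a core to which Zfp36 binds, was counted on the sense strand of the longest annotated 3′ UTR of each gene (GENCODE on mm9). It was present in 6 of the 10 genes, against 28.2% of 9285 genes with a mean FPKM of at least 1, at 0.877 per kb over the 10 genes and 0.272 per kb over all. The median 3′ UTR was 1155 bases in the 10 genes and 1183 bases over all genes. Ier3 held 4 matches in 613 bases and Zfp36 itself 3 in 774 bases. Their densities, 6.53 and 3.88 per kb, exceeded those of 99.7% and 99.2% of the genes. Klf6 and Nr4a3 held 2 matches each in longer 3′ UTRs, Klf10 and Nr4a2 held 1 each, and Nr4a1, Klf4, Ier2 and Ier5 held none. Nr4a1 still had 3 copies of the shorter ATTTA, Ier5 had 2 and Klf4 had 1, while Ier2 had 0. For Ier3, Zfp36 and Nr4a2 a window of 27 bases around the match with the most ATTTA (the first of them where several are equal) is printed with the heptamer in capitals. The windows lie at chr17:35959427-35959453 (plus strand), chr7:29161986-29162012 (minus strand) and chr2:56959957-56959983 (minus strand) in mm9.
Ier3: gtctaattaaTATTTATgTATTTATgt
Zfp36: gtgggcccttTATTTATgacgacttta
Nr4a2: attttgtgccTATTTATgaataaatat
That of Ier3 holds a second copy of the heptamer 1 base after the first.

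**Figure D2:**
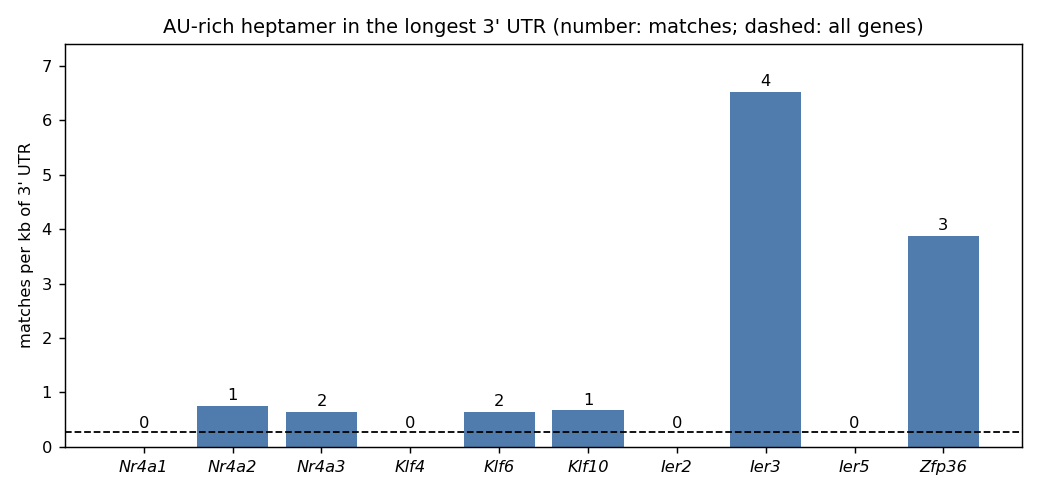
Matches of the heptamer TATTTAT per kb of the longest annotated 3′ UTR (vertical axis) for each of the 10 genes, with the number of matches above each bar. Ier3 and Zfp36 stand at 6.53 and 3.88 per kb, the other 8 genes at 0.754 or less, and the dashed line marks the 0.272 per kb of all genes.

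Taken by hour, the 10 genes were mostly higher with HU210 at 2 h and at 8 h and divided at 4 h and 6 h. At 2 h, 7 genes were higher and 3 lower, with a median log2 change of 0.12 where the median over 11418 genes was -0.051. At 4 h, 4 were higher and 6 lower, with a median of -0.049 against -0.083 over all genes. At 6 h, 6 were higher and 4 lower, with a median of 0.035 against 0.063. At 8 h, 9 were higher and 1, Klf10, was lower, with a median of 0.20 against 0.045. Among all genes, 36.1%, 40.9%, 65.5% and 62.6% were higher with HU210 at these hours. Past the smaller cutoff of 1.3-fold were Ier3 at 2 h, Klf4 and Nr4a2 as lower genes at 4 h, and Ier3 and Nr4a2 at 8 h. The shares of all genes past 1.3-fold were 1.66%, 8.97%, 6.54% and 4.53% higher and 4.02%, 20.0%, 1.82% and 1.48% lower, in the order of the hours.

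**Figure D3:**
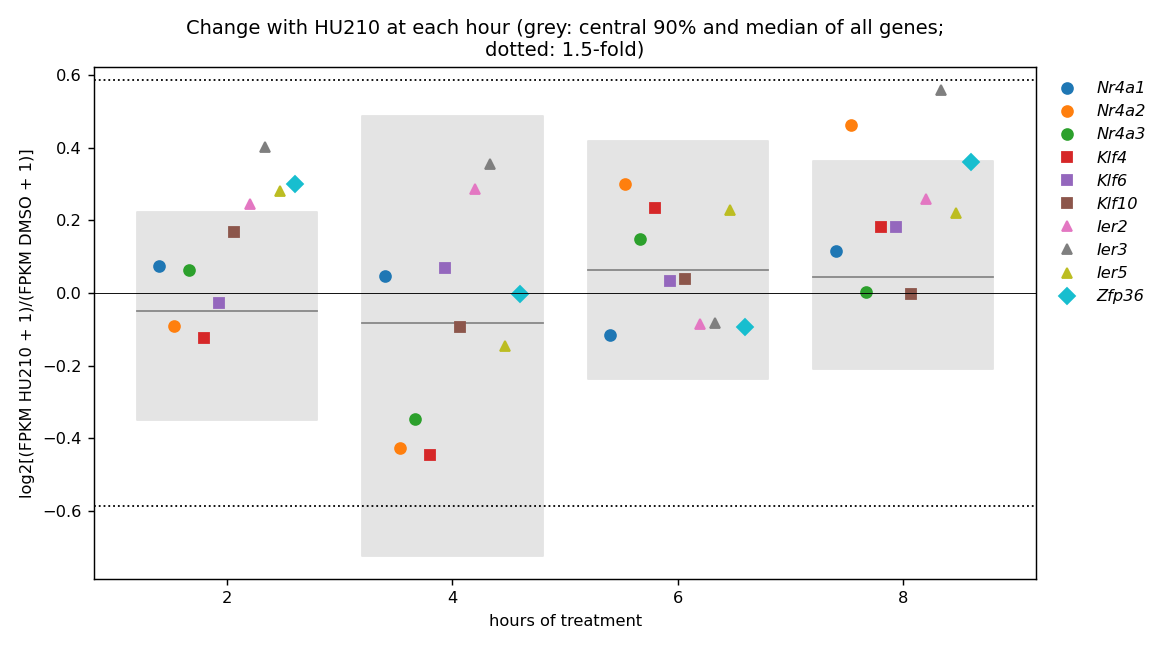
Log2 change with HU210 against DMSO at the same hour (vertical axis) for the 10 genes by hour, 1 pair of libraries per point. Grey boxes span the central 90% of all genes tested at the hour with their median as a line, and all points lie inside the dotted 1.5-fold lines, Ier3 at 8 h (0.56) being nearest to them.

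Whether the mean change over the 4 hours was larger than its spread between the hours was tested with limma on log2(FPKM + 1), with the hour as a block. None of the 10 genes passed, and neither did any of the 11311 genes tested (0% at an adjusted p under 0.05). At an unadjusted p under 0.05 there were 146 genes, or 1.29%, among them 1 of the 10 genes, Ier3. The mean log2 change of Ier3 was 0.31 ± 0.12 (SE, 4 pairs of libraries), with a 95% interval from 0.021 to 0.59 and an adjusted p of 1.0 in limma. Leaving out the libraries of 1 hour at a time moved this mean between 0.22 and 0.44, and its unadjusted p in limma was under 0.05 only without those of 6 h, where Ier2 also passed (0.26). It was over 0.05 as well with no block for the hour, with libraries centred on their median and with no filter on low values. Without the libraries of 4 h, the unadjusted p in limma was under 0.05 for Ier5, with a mean of 0.24. With all 4 hours, the mean of Ier2 was 0.18 with an interval from -0.046 to 0.40. For Ier5 it was 0.15 with -0.090 to 0.38 and for Zfp36 0.14 with -0.11 to 0.39. For Nr4a1 it was 0.029 with -0.16 to 0.22, for Nr4a2 0.062 with -0.32 to 0.44 and for Nr4a3 -0.033 with -0.28 to 0.22. The means of Klf4, Klf6 and Klf10 were -0.038, 0.064 and 0.027, with intervals from -0.35 to 0.28, from -0.12 to 0.24 and from -0.16 to 0.22. The only interval that reaches past 1.5-fold, 0.58 on the log2 scale, is therefore that of Ier3.

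The 4 DMSO libraries also give a spread against which each HU210 library can be placed, although they differ in hour and are shared by all 4 placements. At 2 h, 5 of the 10 genes were above all 4 DMSO libraries (Nr4a1, Ier2, Ier3, Ier5 and Zfp36), against 15.7% of all genes, and Nr4a2 was below them, against 23.9%. At 4 h, Ier2 was above (17.6% of all genes) and Klf4, Klf10 and Zfp36 were below (25.9%). These placements at 4 h, and that of Nr4a2 at 2 h, rest on small margins. On the log2 scale, the HU210 level minus the lowest DMSO level was -0.0091 for Nr4a2 at 2 h. At 4 h it was -0.031 for Klf4, -0.0042 for Klf10 and -0.0025 for Zfp36, and Ier2 was 0.017 above the highest DMSO level. At 6 h, Ier5 was above (19.2%) and Nr4a1 below (9.01%). At 8 h, 6 genes were above (Nr4a1, Nr4a2, Klf6, Ier2, Ier3 and Zfp36), against 14.7%, and none was below, against 8.10%. Ier2 was above the DMSO range at 3 of 4 hours and below it at none, while Nr4a3 lay within it throughout. The median SD of log2(FPKM + 1) over the DMSO libraries was 0.16 for the 10 genes and 0.15 for all genes. Leaving out a DMSO library can only narrow the range of any gene, and the share of all genes outside it was not computed for this case. Without the DMSO library of 4 h, which was the highest for Nr4a2, Nr4a3 and Klf4, 4 genes in place of 1 were above the range at 6 h. Without that of 6 h or that of 8 h there were 3, and without that of 2 h there was 1.

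At 4 h the log2 changes of all genes went with the GC content of their exons. Spearman's rho was 0.50 over 11387 genes, a correlation across genes and not across replicates. At the other hours it was 0.15, -0.27 and -0.14. The 10 genes cover much of this range, from 42.4% GC in Klf6 and 47.1% in Klf10 to 57.0% in Nr4a1 and 60.9% in Ier2. Removing a loess trend on GC content and exon length left Ier3 at 0.26 and Ier2 at 0.13 at 4 h, and left Nr4a2 at -0.31 and Nr4a3 at -0.18. Klf4, with 54.9% GC, went from -0.45 to -0.53. Klf6 went from 0.069 to 0.39, past 1.3-fold, since genes of its GC content and length were lower with HU210 by 0.32 on this scale at that hour. The part of GC content in these values was not tested beyond this fit. At 2 h and 8 h the largest values changed little, Ier3 being at 0.46 and 0.52 and Zfp36 at 0.36 and 0.32 without the trend.

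**Figure D4:**
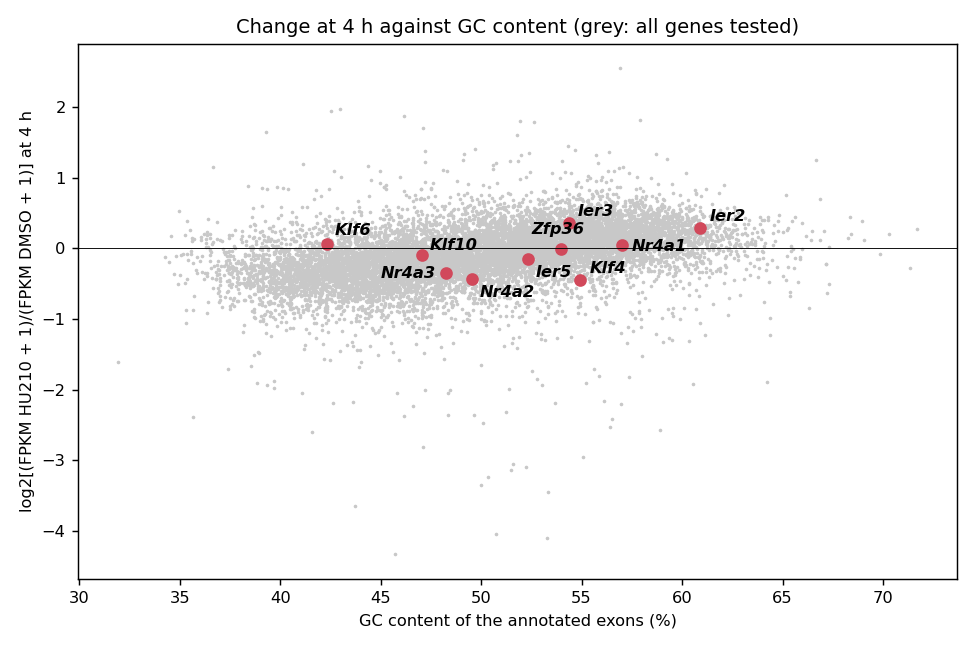
Log2 change with HU210 at 4 h (vertical axis) against the GC content of the annotated exons in percent (horizontal axis), with all 11387 genes tested as grey dots and the 10 genes in red. The grey cloud rises with GC content, Ier2 at 60.9% GC lies at 0.29 and Klf4 at 54.9% GC lies at -0.45, below most genes of like GC content.

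Levels were also followed over the hours in both treatments together. With treatment as a covariate in limma, 0 of the 10 genes and 0% of the 11311 genes had a slope per hour at an adjusted p under 0.05, and 1323 genes, or 11.7%, had one at an unadjusted p under 0.05. These included 2 of the 10, Ier5 with -0.061 ± 0.023 and Klf6 with 0.040 ± 0.015 per hour on the log2 scale (SE, 8 libraries), both with an adjusted p of 0.37 in limma. Their unadjusted p in limma was over 0.05 without the libraries of 2 h or of 8 h, and for Klf6 also without those of 6 h. It stayed under 0.05 in the other alternatives. Whether all 8 libraries went through 1 run of the authors' quantification is not stated, and levels at different hours may not share 1 scale. The slopes of the HU210 and DMSO libraries did not differ at an adjusted p under 0.05 for any gene in limma. The unadjusted p was under 0.05 for 329 genes, or 2.91%, and for 1 of the 10, Nr4a2, with a difference of 0.12 ± 0.051 per hour (adjusted p = 0.958 in limma). For Nr4a2 it was over 0.05 with libraries centred on their median, with no filter on low values, and without the libraries of 6 h or of 8 h. It stayed under 0.05 with a pseudocount of 0.1 and without the libraries of 2 h or of 4 h.

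Over the 8 libraries, the pairs of genes with a Pearson correlation of at least 0.8 were Ier3 with Zfp36 (0.91) and Nr4a2 with Klf4 (0.82), 2 of 45 pairs or 4.44%. Among all pairs of the 11311 genes the share was 3.35%. The median correlation was 0.17 among the 10 genes and 0.045 among all pairs. Without the libraries of 4 h, 4 of 45 pairs or 8.89% were at 0.8 or more over 6 libraries, against 5.37% of all pairs. They were Ier3 with Zfp36 (0.96), Nr4a2 with Klf6 (0.85), Ier2 with Zfp36 (0.83) and Ier2 with Ier5 (0.82), while Nr4a2 and Klf4 had 0.74 and Nr4a1 and Nr4a3 had -0.85. The points share hours and, by hour, the DMSO and HU210 cultures. The mean standardised profile of the 10 genes was highest with HU210 at 8 h (0.90), followed by HU210 at 2 h (0.45), and lowest with HU210 at 4 h (-0.63). The 5 other genes whose profile had the highest correlation with it were Bcat1 (0.924), Ccdc38 (0.922), Nav3 (0.921), Zfp606 (0.907) and Cntln (0.906). High values of this kind are common among so many genes and so few libraries.

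The counts for related genes stand beside the shares of all genes past 1.5-fold in the same comparison of HU210 and DMSO libraries. These shares were 8.80% lower and 2.81% higher at 4 h, 0.708% lower at 6 h and 0.604% higher at 2 h. Of 18 other Klf and Sp genes, 11 had a mean FPKM of at least 1, and the changes past 1.5-fold were those of Sp2, which was lower at 4 h (-0.85) and at 6 h (-0.63). Among 5 measured genes of the list with Ier5l, Ier3ip1, Zfp36l1, Zfp36l2 and the Rxr partners of Nr4a receptors, Ier3ip1 was higher at 4 h (0.84) and none passed 1.5-fold at the other hours. The DMSO library of 4 h was the lowest of the 4 for Ier3ip1, with 46.4 FPKM beside 67.4 to 74.2. Of the upstream factors and kinases, among them Srf, the Elk genes and Creb1, 1 was higher by 1.5-fold at 2 h. This was Elk4, with 4.71 FPKM in DMSO and 11.1 in HU210 at 2 h (1.09). Its DMSO level was 11.1 to 14.1 FPKM at the other hours, so that the DMSO library of 2 h stands apart from the rest. At 4 h, Elk4 (-0.64) and Rps6ka3 (-0.90) were lower by more than 1.5-fold. For both, the DMSO library of 4 h was the highest of the 4, in Rps6ka3 with 33.0 FPKM beside 19.1 to 19.6. The part of that library in the changes at 4 h was not tested.

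A list of 49 other early genes, with the Fos, Jun, Egr, Dusp and Gadd45 genes, had 40 to 42 members tested at an hour. At 2 h, 6 of 42 were higher by 1.5-fold and 0 lower, where 0.604% and 1.52% of all genes were, with a median log2 change of 0.11 beside -0.051 over all genes. At 4 h 1 was higher and 4 were lower (2.81% and 8.80% of all genes), at 6 h 0 and 1 (1.89% and 0.708%), and at 8 h 2 and 0 (1.3% and 0.588%), with medians of 0.040, 0.0022 and 0.21. The largest changes were those of Egr3, at 1.05, 0.52, -0.62 and 0.48 over the 4 hours, and Egr1, at 0.97, 0.35, -0.47 and 0.74. Id1 (0.88 at 4 h) and Mcl1 (-0.86 at 4 h, 0.51 at 6 h and 0.45 at 8 h) followed. For Egr3 and Egr1 the DMSO library of 6 h was the highest of the 4. It had 1.56 FPKM of Egr3 beside 0.607 to 0.723, and 27.0 FPKM of Egr1 beside 18.3 to 18.9. The DMSO library of 4 h was the highest for Mcl1 (36.5 FPKM beside 21.0 to 27.0) and the lowest for Id1 (12.5 beside 13.5 to 21.2). The part of these DMSO libraries in the changes was not tested. Of 15 partners of Zfp36 in mRNA decay, with CCR4-NOT subunits and the decapping genes, 6 were lower at 4 h (8.80% of all genes) and 1 of 14 was higher at 6 h (1.89%). Cnot6, a deadenylase, had -1.03 at 4 h and 0.67 at 6 h, and Cnot7, Cnot6l and Cnot2 had -0.89, -0.89 and -0.77 at 4 h. For each of these 4 genes the DMSO library of 4 h was the highest of the 4, as in Cnot6 with 50.4 FPKM beside 29.2 to 36.2, and its part in the result was not tested. The trend with GC content and length, described above for 4 h, was not removed from the changes of any of the gene lists.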

How the data were processed

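N2A cells were sequenced in 8 libraries, 1 for each treatment and hour. Per the labels and the study's methods, the authors aligned reads to mm9 with TopHat2 2.0.8, Bowtie2 2.1.0 and SAMtools 0.1.7 and computed FPKM with Cufflinks under upper-quartile normalization and corrections for multireads and fragment bias; its version is not given in the sources used here. The deposited FPKM carry an added 1, which was subtracted. The authors' log2 fold changes, p-values and q-values, and a second table that holds such calls, were not used.

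The change was log2[(FPKM HU210 + 1)/(FPKM DMSO + 1)], taken over genes with a mean FPKM of at least 1 in the pair. limma 3.58.1 (R 4.3.3) was run on log2(FPKM + 1) of genes listed at all 4 hours with a mean FPKM of at least 1, with Benjamini-Hochberg adjustment at 0.05. Its p-values measure the spread over hours, not between replicate cultures. The loess trend on GC content and exon length had a span of 0.3 and degree 1. Exons came from GENCODE vM1 (mm9), in which no annotated gene overlaps the 10 genes, and promoters from RefSeq (GRCm38.p6). The steps were tested on simulated data. For limma, the changes put into these data were larger than any change of the 10 genes. They therefore do not show whether changes of the size seen here would pass. The other computations used Python 3.11.15.

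The genes and lists were chosen with earlier results of these data known. Named are the 10 genes, at most 4 genes of each list past 1.5-fold with the largest change, the 5 genes with the most similar profile, and markers. Some members of these lists are not reported here. Reads per gene are not part of the FPKM table, so the counting precision per gene is not given.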

Additional observations from a re-analysis of the deposited data

Results flagged for a closer look

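Nr4a2 was set aside because its change with HU210 had opposite directions at different hours, each past 1.3-fold. The log2 change was -0.43 at 4 h and 0.46 at 8 h, with 1 pair of libraries at each hour, so that the difference between these 2 hours was not tested. The difference of linear slopes over all 4 hours had an adjusted p of 0.958 in limma. At 4 h the DMSO library had the highest Nr4a2 level of the 4 DMSO libraries, 1.82 FPKM beside 1.04 to 1.15, and its part in the result was not tested beyond the comparison with the mean of the DMSO libraries, which gave -0.11 at 4 h and 0.37 at 8 h.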

How the results depend on the processing

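With 1 library per condition, the alternatives show how far a value depends on scale and reference, not its error. The number of the 10 genes past 1.5-fold stayed at 0 at every hour without a filter on low values, with the DMSO mean as reference, with each pair centred on its median ratio and after removal of the GC and length trend. A pseudocount of 0.1 gave 1 gene at 4 h and 2 at 8 h, and the 1.3-fold cutoff gave 1 at 2 h, 2 at 4 h and 2 at 8 h. Of the 40 log2 changes, 40 kept their sign with a pseudocount of 0.1, 35 after centring, 34 without the trend and 31 with the DMSO mean as reference. With each pair centred, the median of the 10 genes was 0.034 at 4 h and -0.028 at 6 h. Leaving out 1 DMSO library at a time gave 5 to 6 genes above and 1 to 2 below the DMSO range at 2 h. At 4 h it gave 1 to 2 above and 4 below, at 6 h 1 to 4 above and 1 below, and at 8 h 6 to 7 above and 0 to 1 below. With all libraries centred on their median, 1 gene in place of 3 was below the range at 4 h and 4 in place of 6 above it at 8 h. The shares of all genes outside the range were not computed under these settings, so that these counts have no background beside them. In limma, 0 of the 10 genes passed in any of the 3 tests under any alternative, with adjusted p of these genes from 0.880 to 1.0 for treatment, 0.152 to 1.0 for the slope and 0.649 to 1.0 for the difference of slopes. Without the 4 h libraries, 1 gene outside the 10 passed for treatment. The hour as a block pairs the HU210 and DMSO libraries, and without it 0 of the 10 genes passed either. The labels carry no replicate numbers. Heptamers were found in 6 genes also in the 3′ UTR of the longest transcript. The correlations without the libraries of 4 h were added after seeing the data.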
